A study of Mus musculus with 2 samples.

Results

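Edn2, Fgf2 and 7 further genes of retinal survival signalling were followed through the cell classes of the mouse retina after a short exposure to damaging light. The 9 genes, chosen by name out of 32285 measured, were the ligands Edn2, Fgf2, Bdnf, Vegfa and Serpinf1 and the receptors Ednra, Ednrb, Fgfr1 and Ntrk2, and all 9 were found in the count tables. The control library came from dark-adapted retinae and the light damage library from retinae exposed to 5000 lux of white light for 30 min and left to recover for 6 h. All mice, controls included, were homozygous for a floxed Tgfbr2 allele and counted as functional wild type, had a Balb-C/CD1 background with the L450 variant of RPE65 on both alleles, were 6 to 9 weeks of age, of both sexes, and had spent 18 h in darkness. Each library pooled the retinae of 3 to 5 mice after magnetic removal of dead cells and was sequenced once with the 10x Genomics 3' chemistry, so that there was 1 library per group. Differences therefore have no replicate check and no p-values, and the 95% intervals cover counting error only.

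Endothelins are short vasoactive peptides that act on the G protein-coupled receptors EDNRA and EDNRB, and endothelin 2 is known as a signal that stressed photoreceptors send to Müller glia, the radial support cells of the retina. FGF2 signals through FGFR1 and other receptor tyrosine kinases and is a classical survival factor for photoreceptors, as is BDNF, which acts on the receptor TrkB encoded by Ntrk2. VEGFA, the main growth factor of blood vessels, and PEDF, the anti-angiogenic protein encoded by Serpinf1, are textbook products of the retinal pigment epithelium (RPE) and Müller glia.

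Edn2 lies on chr4:120161206-120167360 (GRCm38, plus strand, 5 exons). The stretch of 250 bases just before its RefSeq start, at chr4:120160956-120161205 (GRCm38.p6, plus strand), is shown because Edn2 was the ligand with the largest ratio in rods. For Bdnf (chr2:109674450-109674699, plus strand, the first of 7 windows of this gene) and Vegfa (chr17:46032378-46032627, minus strand, the first of 2 windows) the same stretch is shown because these genes went in opposite directions in different cell classes. Capitals mark matches to 5 short motifs searched on both strands.
Edn2: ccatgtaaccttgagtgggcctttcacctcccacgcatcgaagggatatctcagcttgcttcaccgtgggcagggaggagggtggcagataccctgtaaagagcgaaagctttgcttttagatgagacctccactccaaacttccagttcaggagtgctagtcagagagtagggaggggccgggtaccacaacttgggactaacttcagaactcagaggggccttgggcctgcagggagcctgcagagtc
Bdnf: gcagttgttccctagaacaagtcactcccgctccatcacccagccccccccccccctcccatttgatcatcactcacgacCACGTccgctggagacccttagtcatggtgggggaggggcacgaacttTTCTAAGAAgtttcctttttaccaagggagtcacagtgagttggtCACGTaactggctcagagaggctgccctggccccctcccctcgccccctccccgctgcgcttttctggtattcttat
Vegfa: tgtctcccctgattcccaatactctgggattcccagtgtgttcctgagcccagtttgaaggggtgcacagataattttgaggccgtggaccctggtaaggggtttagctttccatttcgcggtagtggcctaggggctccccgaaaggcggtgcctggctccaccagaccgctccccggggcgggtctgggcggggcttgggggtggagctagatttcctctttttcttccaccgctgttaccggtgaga
The motifs were the AP-1 site TGANTCA, the STAT site TTCNNNGAA, the C/EBP-type site TTNNGNAA, the CRE core TGACG and the hypoxia element ACGTG, and the last pair can overlap. Among 32851 windows of this length, 6.75% held the AP-1 site, 7.02% the STAT site, 36.8% the C/EBP-type site, 17.8% the CRE core and 16.6% the hypoxia element. Neither the Edn2 nor the Vegfa window shown held any of these letters, and the Bdnf window held 1 STAT site and 2 hypoxia elements. The second Vegfa window, at chr17:46025164-46025413, lies inside the annotated gene (chr17:46016993-46032369) and not before its outermost start. It held a hypoxia element, a CRE core and a C/EBP-type site, and other Bdnf windows held AP-1, hypoxia, CRE and C/EBP-type matches. The Fgf2 window (chr3:37348403-37348652) held 2 CRE cores, 6 and 140 bases before the RefSeq start, and 1 C/EBP-type site. The Ednrb window (chr14:103843702-103843951) held 1 CRE core. These windows, and the Bdnf windows other than the first, also lie inside the annotated genes and not before their outermost starts. Windows were found for 8 of the 9 members, and a match describes letters only.

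Of the droplets in the unfiltered tables, 3669 control and 5593 light damage droplets were kept, above minimums of 1464 and 1614 UMIs (unique molecular identifiers, each counting 1 captured RNA molecule). Rod-like droplets were split at an unspliced share of 25% of their UMIs into low-unspliced rods (2469 control, 1914 light damage) and high-unspliced rods (796 and 3178). This split is a range, not a cell type, and 4.81% of control rods and 1.18% of light damage rods lay between 20% and 30%. In both rod classes the median droplet held 0 UMIs of the marker lists of cones, RPE, Müller glia and microglia. Rod markers stood at 81945.8 and 80338.3 CPM in low-unspliced rods of the control and light damage libraries, and at 55666.3 and 38278.8 CPM in high-unspliced rods. Red blood cell markers stood at 73.6 and 16.4 CPM in low-unspliced and at 13.3 and 630.0 CPM in high-unspliced rods, and the part of these differences in the rod values was not tested. The other classes were small, with 152 and 91 cone-like, 158 and 295 RPE-like, 44 and 45 Müller-like and 10 and 45 microglia-like droplets, and median depth differed strongly between libraries in cones (2794 against 17040 UMIs) and Müller-like droplets (2484 against 14591). Only 7 barcodes were kept in both libraries. Levels are given as CPM, counts-per-million of the spliced plus ambiguous UMIs of a class, and for unspliced UMIs as unspliced CPM, scaled to the unspliced UMIs of the class.

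The libraries differed in which rod clusters they filled. Clusters 5, 6 and 12 held 3013 of the 5092 light damage rods but 51 of the 3265 control rods, and 1 of these 51 barcodes was also kept in the light damage library. These 51 droplets carried 11 of the 25 Edn2 UMIs of all control rods and 26 of the 209 Fgf2 UMIs. The RNA outside cells, read from barcodes with fewer than 50 UMIs, also differed, and held Edn2 at 3.97 CPM (control) and 48.2 CPM (light damage).

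Edn2 was close to absent from control rods and was found in a minority of light damage rods, in both rod classes. In low-unspliced rods Edn2 was at 2.07 CPM in the control (17 UMIs, interval 1.20 to 3.31) and at 31.0 CPM after light damage (210 UMIs, 26.9 to 35.4). In high-unspliced rods it was at 4.43 CPM (8 UMIs, 1.91 to 8.72) and 53.9 CPM (597 UMIs, 49.6 to 58.4). The intervals of the libraries did not overlap in either rod class. The light damage level was 15-fold higher in low-unspliced rods (log2 ratio 3.90, 3.19 to 4.71) and 12.2-fold higher in high-unspliced rods (log2 ratio 3.60, 2.62 to 4.82), and the intervals of these ratios overlapped.

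**Figure D1:**
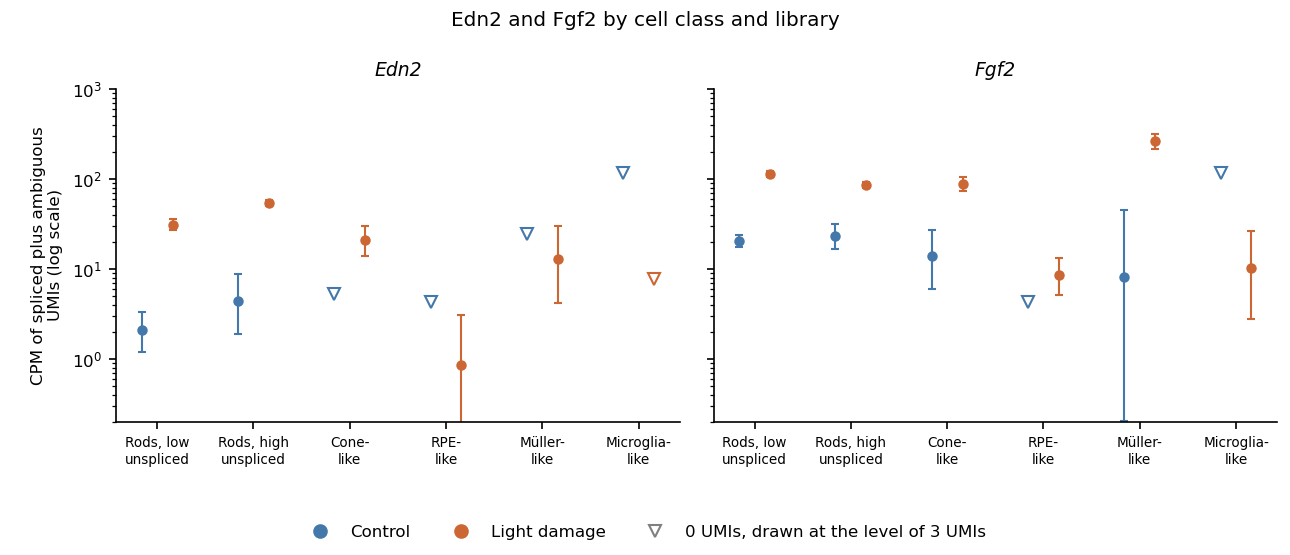
CPM of Edn2 and Fgf2 (log scale) in 6 cell classes, with 1 point per library and exact Poisson 95% intervals that are clipped at the lower edge of the axis. Open triangles stand for 0 UMIs and are drawn at the level of 3 UMIs. Edn2 in rods lies at 2.07 and 4.43 CPM in the control and at 31.0 and 53.9 CPM after light damage.

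Which rod class had more Edn2 after light damage depended on the denominator. With unspliced UMIs included, Edn2 stood at 29.0 CPM of all UMIs (25.2 to 33.2) in low-unspliced and 26.3 (24.3 to 28.5) in high-unspliced rods, with overlapping intervals. Unspliced Edn2 UMIs were few, 0 in control and 17 in light damage droplets of all classes together.

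Inside rod clusters filled by both libraries Edn2 was higher after light damage as well. In cluster 0, with 1203 control and 942 light damage rods, it was at 1.35 CPM and 20.0 CPM (log2 ratio 3.89, 2.69 to 5.39). In cluster 4, with 508 and 707 rods of high unspliced share, it was at 3.86 CPM and 17.9 CPM (log2 ratio 2.21, 0.64 to 4.21). Over all 8 rod clusters the light damage level of Edn2 ranged from 9.11 to 67.1 CPM, highest in cluster 5. The 17 control droplets in cluster 12 held 7 Edn2 UMIs (111.4 CPM), against 54.2 CPM in the 566 light damage droplets of that cluster.

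Outside rods Edn2 appeared in cones. Cone-like droplets had 0 Edn2 UMIs in the control, where 3 UMIs would be 5.20 CPM, and 30 UMIs (20.8 CPM, 14 to 29.6) after light damage, which is at least 4.00-fold higher. The summed rod marker level in the cone-like droplets was 69210.2 CPM in the control and 39503.2 CPM after light damage, and the part of rod RNA in the Edn2 level of cones was not tested. RPE-like droplets had 0 and 2 Edn2 UMIs, Müller-like droplets 0 and 5 and microglia-like droplets 0 and 0, which allows no fold.

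Deeper droplets show more genes, so droplets were also thinned to 1500 UMIs of all kinds each, of which only spliced plus ambiguous UMIs of a gene were counted. Unspliced UMIs were 55.5% (control) and 52.4% (light damage) of high-unspliced rods and 6.49% and 6.67% of low-unspliced rods. They were 4.90% of light damage RPE-like droplets. Thinned shares of these classes are therefore not at equal depth in the UMIs counted. After thinning, an Edn2 UMI was seen in 0.289% of 2420 control low-unspliced rods (0.116 to 0.595) and in 4.28% of 1914 light damage rods (3.42 to 5.29), against 0.527% and 7.68% unthinned. In high-unspliced rods the thinned shares were 0.383% of 783 (0.0791 to 1.12) and 3.05% of 3178 (2.48 to 3.71), against 0.628% and 10.7% unthinned. In cone-like droplets the thinned shares were 0% of 151 (0 to 2.41) and 2.20% of 91 (0.267 to 7.71), with overlapping intervals. Of the light damage RPE-like droplets, which serve as a measure of background at a median depth of 5983 UMIs against 6143.5 in high-unspliced rods, 0.339% held an Edn2 UMI (0.00858 to 1.87). Edn2 UMIs were thus spread over a minority of droplets in either rod class, at a share above that in RPE-like droplets.

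**Figure D2:**
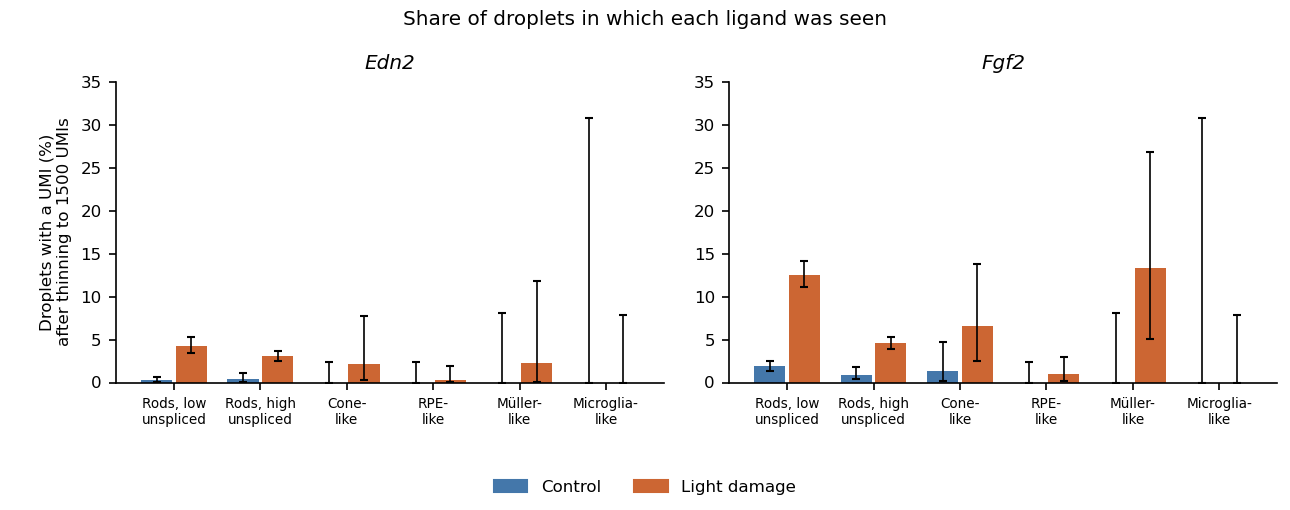
Share of droplets (%) with a spliced or ambiguous UMI of Edn2 or Fgf2 after thinning every droplet to 1500 UMIs of all kinds, by cell class and library, with exact binomial 95% intervals. Light damage rods reach 4.28% and 3.05% for Edn2 and 12.5% and 4.56% for Fgf2, while wide intervals mark classes with few droplets, such as the 10 control microglia-like droplets.

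Ednrb, the endothelin receptor known from Müller glia, was higher in Müller-like droplets after light damage. The gene, on chr14:103814625-103844402 (minus strand), was at 24.4 CPM in control Müller-like droplets (3 UMIs, 5.04 to 71.5) and at 332.2 CPM after light damage (130 UMIs, 277.6 to 394.5), a 13.6-fold ratio (log2 3.76, 2.19 to 6.06). A single light damage droplet held 28 of the 130 UMIs, and 18 of 45 droplets held any. Unspliced Ednrb showed the same direction, with 0 control UMIs and 232.0 unspliced CPM (89 UMIs) after light damage. With the control set to 3 UMIs this was 10.3-fold higher (log2 3.36, lower end 3.03).

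In cones, the other class with Ednrb in both libraries, the levels were close. Ednrb was at 22.5 CPM (13 UMIs, 12 to 38.5) and 31.8 CPM (46 UMIs, 23.3 to 42.5), a log2 ratio of 0.50 whose interval, -0.41 to 1.51, includes 0. In light damage cones 15 of the 46 UMIs came from 1 droplet. RPE-like droplets had 0 and 12 Ednrb UMIs, and rods 0 and 7. In the light damage library Ednrb was highest in Müller-like droplets and next in cones, with no overlap of their intervals. Ednra, the receptor best known from vascular smooth muscle, had 1 spliced or ambiguous UMI in each library and 17 and 40 unspliced UMIs. In high-unspliced rods its unspliced CPM was 2.67 (6 UMIs) and 2.13 (26 UMIs), a log2 ratio of -0.32 whose interval, -1.64 to 1.25, includes 0.

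The Müller-like droplets of the libraries also differed in markers. Their summed Müller marker level was 18067.7 CPM in the control and 6859.6 CPM after light damage, with none of the 8 markers at 0. Pericyte markers stood at 1083.9 and 76.7 CPM, endothelial markers at 114.1 and 48.6 CPM, astrocyte markers at 146.7 and 385.9 CPM and rod markers at 12501.5 and 7570.1 CPM. The part of these differences in the Müller-like values was not tested. The median gene with at least 50 UMIs in both groups had a log2 ratio of -0.47 in this class, and relative to it the ratio of Ednrb was 4.23. Lif, the cytokine that Müller glia and other retinal cells release under stress, is no member and was looked up after earlier results were known. It had 0 control UMIs in Müller-like droplets and 332 after light damage (848.5 CPM). With the control set to 3 UMIs this was 34.7-fold higher (log2 5.12, lower end 4.81).

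Fgf2 was present in control rods and higher after light damage in rods, cones and Müller-like droplets. Low-unspliced rods had Fgf2 at 20.3 CPM in the control (167 UMIs, 17.4 to 23.6) and 113.9 CPM after light damage (773 UMIs, 106.1 to 122.3), a 5.61-fold ratio (log2 2.49, 2.24 to 2.74). High-unspliced rods had 23.2 CPM (42 UMIs, 16.8 to 31.4) and 85.5 CPM (947 UMIs, 80.1 to 91.1), a 3.68-fold ratio (log2 1.88, 1.43 to 2.36). The libraries did not overlap in either class, and the control levels of the rod classes overlapped.

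In cones Fgf2 was at 13.9 CPM (8 UMIs, 5.98 to 27.3) and 87.2 CPM (126 UMIs, 72.6 to 103.8), 6.29-fold higher after light damage (log2 2.65, 1.63 to 3.90). In Müller-like droplets it went from 1 UMI (8.15 CPM) to 102 UMIs (260.7 CPM, 212.6 to 316.5), with a log2 ratio of 5.00 (2.49 to 10.32). There the unspliced UMIs gave a smaller ratio, 98 unspliced CPM (13 UMIs) in the control and 255.5 (98 UMIs) after light damage (log2 1.38, 0.54 to 2.34). RPE-like droplets had 0 and 20 Fgf2 UMIs (8.46 CPM), 1.95-fold higher with the control set to 3 UMIs (log2 0.97, lower end 0.53). With the expected RNA from outside cells subtracted this log2 ratio was 0.25, and its interval reached down to -0.26. After light damage Müller-like droplets had the highest CPM, then low-unspliced rods, then cones and high-unspliced rods with overlapping intervals, and last bipolar-like (30.2 CPM, 5 UMIs), microglia-like (10.2 CPM, 4 UMIs) and RPE-like droplets. With unspliced UMIs included the rod classes overlapped, at 112.5 (105.0 to 120.5) and 114.0 (109.7 to 118.4) CPM of all UMIs.

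Clusters 5 and 12 had the highest light damage levels of both Fgf2 and Edn2 among the rod clusters. Cluster 12 came first for Fgf2 and cluster 5 for Edn2. In cluster 0 Fgf2 was at 17.3 CPM in the control and 74.9 CPM after light damage (log2 2.12, 1.74 to 2.51). In cluster 12, where Fgf2 itself was among the 10 leading genes although it was left out of the clustering, the light damage level was 197.0 CPM. In cluster 5 the few control rods matched the light damage rods, with 126.1 CPM (17 UMIs) and 128.9 CPM (592 UMIs) and a log2 ratio of 0.03 (-0.66 to 0.82). The interval of Edn2 in cluster 5 also included 0 (log2 1.18, -0.19 to 3.06). In cluster 6 Fgf2 was at 58.3 CPM after light damage, below clusters 0, 5 and 12 and above the other rod clusters. The range across the rod clusters of this library was 41.9 to 197.0 CPM.

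Unspliced Fgf2, which is taken as RNA not yet spliced, was higher in rods after light damage too. It was at 7.01 unspliced CPM (4 UMIs) and 92.9 (45 UMIs) in low-unspliced rods, a log2 ratio of 3.73 (2.27 to 5.67). In high-unspliced rods it was at 30.7 (69 UMIs, 23.9 to 38.8) and 139.9 (1706 UMIs, 133.3 to 146.7), a log2 ratio of 2.19 (1.84 to 2.56). By comparison, Edn2 had 17 unspliced UMIs and Vegfa 8 in light damage rods.

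Fgf2 lies on chr3:37348346-37410108 (plus strand) and shares bases with genes on the opposite strand, 1395 with Fgf2os at its start and 5199 with Nudt6 at its end. The counts used the forward strand only, so reads of the opposite strand were not meant to enter Fgf2. This does not hold for Gm43439, a processed transcript on the same strand that shares 56521 bases with Fgf2. Gm43439 was not counted as a gene of its own, and its part in the Fgf2 values, spliced or unspliced, was not tested. Both opposite-strand neighbours were also higher after light damage. Fgf2os was at 2.43 and 30.5 CPM in low-unspliced rods (log2 3.65, 2.98 to 4.39) and at 8.30 and 40.2 CPM in high-unspliced rods (log2 2.27, 1.54 to 3.12). Nudt6 was at 5.84 and 21.7 CPM in low-unspliced rods (log2 1.89, 1.41 to 2.39) and at 4.43 and 31.7 CPM in high-unspliced rods (log2 2.84, 1.84 to 4.06). In Müller-like droplets, where Fgf2 reached 102 UMIs, Fgf2os had 0 and 2 UMIs and Nudt6 0 and 7.

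**Figure D3:**
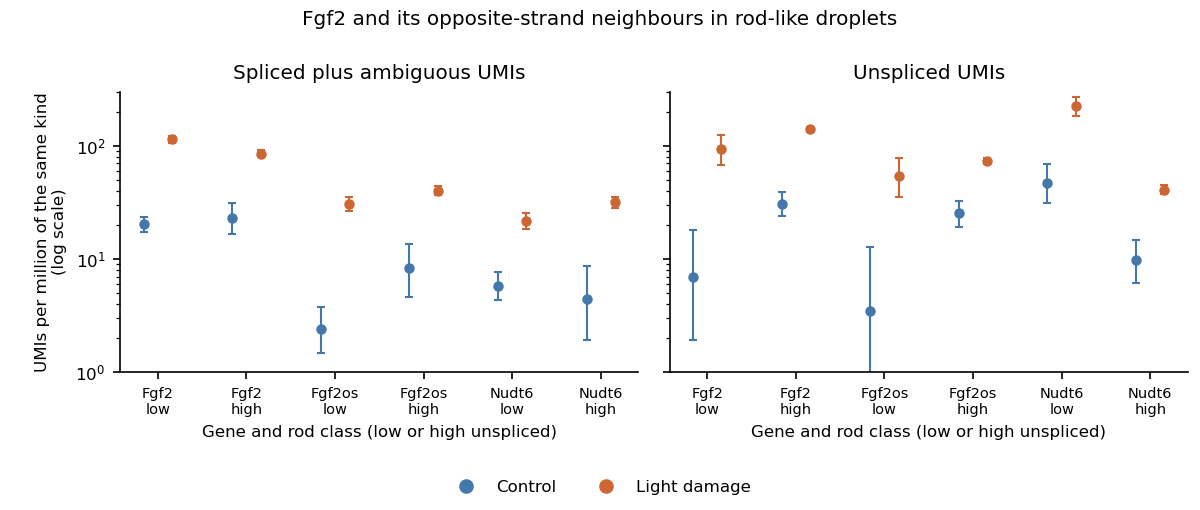
CPM of UMIs of the same kind, spliced plus ambiguous or unspliced (log scale), for Fgf2 and for Fgf2os and Nudt6, which share bases with it on the opposite strand, in rods of low and high unspliced share, with exact Poisson 95% intervals clipped at the lower axis edge. In both panels the light damage points lie above the control points for all 3 genes, as for Fgf2 at 113.9 against 20.3 CPM in low-unspliced rods.

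Edn2 and Fgf2 were seen together in droplets more often in one rod class. Among light damage low-unspliced rods thinned to 1500 UMIs, an Fgf2 UMI was found in 34.1% of the 82 droplets with Edn2 (24 to 45.4) and in 11.6% of the 1832 without (10.1 to 13.1). Among high-unspliced rods the shares were 6.19% of 97 (2.30 to 13.0) and 4.51% of 3081 (3.81 to 5.31), with overlapping intervals. Each class pools clusters that differ in both genes. After light damage Edn2 and Fgf2 stood at 54.2 and 197.0 CPM in cluster 12 and at 9.11 and 45.5 CPM in cluster 1, both of low unspliced share. The part of these cluster differences in the shares was not tested. Thinned shares of Fgf2 over all droplets were 1.90% of control and 12.5% of light damage low-unspliced rods, and 0.894% and 4.56% of high-unspliced rods, against 3.56%, 21.7%, 2.64% and 17.1% unthinned. The rod classes cannot be set against each other by these shares, since fewer of the 1500 UMIs were spliced or ambiguous in high-unspliced rods. In light damage RPE-like droplets the thinned share was 1.02%. In cone-like droplets the thinned shares of Fgf2 were 1.32% (0.161 to 4.70) in the control and 6.59% (2.46 to 13.8) after light damage. In Müller-like droplets they were 0% (0 to 8.04) and 13.3% (5.05 to 26.8), and in both classes the libraries overlapped.

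Fgfr1, the receptor tyrosine kinase for FGF2 on chr8:25513654-25575718 (plus strand), was a gene of RPE and Müller glia in these libraries. RPE-like droplets had 47.6 CPM in the control (33 UMIs, 32.8 to 66.9) and 102.7 CPM after light damage (243 UMIs, 90.2 to 116.5), a 2.16-fold ratio (log2 1.11, 0.58 to 1.68). Müller-like droplets had 211.9 CPM (26 UMIs, 138.4 to 310.5) and 138.0 CPM (54 UMIs, 103.7 to 180.1), with a log2 ratio of -0.62 whose interval, -1.32 to 0.12, includes 0. The libraries were thus apart in RPE-like droplets and overlapped in Müller-like droplets. Rods of both classes together had 3 control and 11 light damage UMIs of Fgfr1, and cones 0 and 1.

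Bdnf was lower in RPE-like and higher in Müller-like droplets of the light damage library. In RPE-like droplets it was at 34.7 CPM (24 UMIs, 22.2 to 51.6) in the control and 9.30 CPM (22 UMIs, 5.83 to 14.1) after light damage, 3.73-fold lower (log2 -1.90, -2.80 to -1.0). In Müller-like droplets it was at 16.3 CPM (2 UMIs, 1.97 to 58.9) and 207.0 CPM (81 UMIs, 164.4 to 257.3), a log2 ratio of 3.67 (1.77 to 6.74). The control levels of these classes overlapped, and the light damage levels did not. Unspliced Bdnf in Müller-like droplets was at 0 UMIs in the control and 91.2 unspliced CPM (35 UMIs) after light damage, at least 4.03-fold higher. After thinning, the share of RPE-like droplets with a Bdnf UMI was 1.92% and 1.69%, with overlapping intervals, so the lower level was not detectable as a lower share at this depth. Bipolar-like droplets had Bdnf at 101.5 CPM (8 UMIs, 43.8 to 200.1) in the control and 84.4 CPM (14 UMIs, 46.2 to 141.6) after light damage. The log2 ratio there was -0.27, and its interval, -1.62 to 1.19, includes 0. Rods and cones had 0 control UMIs of Bdnf and 15 after light damage.

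Ntrk2, the BDNF receptor on chr13:58806569-59133970 (plus strand), was found almost wholly in RPE-like and bipolar-like droplets. RPE-like droplets had 199.3 CPM (138 UMIs, 167.4 to 235.4) and 266.8 CPM (631 UMIs, 246.4 to 288.4), a 1.34-fold ratio (log2 0.42, 0.15 to 0.70). The interval excludes equal levels by counting error, and the ratio stayed under 2-fold. Bipolar-like droplets, only 32 and 17, had 126.9 CPM (10 UMIs) and 597.0 CPM (99 UMIs), a log2 ratio of 2.23 (1.29 to 3.34), and unspliced Ntrk2 went from 120.9 to 988.9 unspliced CPM there. Rod markers in the bipolar-like droplets stood at 20308.7 and 2176.9 CPM and median depth at 2729 and 19428 UMIs. The part of these differences in the bipolar-like values was not tested, and the alternative settings did not cover this class. Müller-like and microglia-like droplets had 0 Ntrk2 UMIs in both libraries, where 3 UMIs would have been 24.4 and 7.67 CPM in the Müller-like class. Rods had 3 control and 13 light damage UMIs.

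Vegfa, on chr17:46016993-46032369 (minus strand), went in opposite directions in RPE-like droplets and cones. RPE-like droplets had 268.6 CPM in the control (186 UMIs, 231.3 to 310.0) and 116.7 CPM after light damage (276 UMIs, 103.3 to 131.3), 2.30-fold lower (log2 -1.20, -1.48 to -0.93). The thinned share of RPE-like droplets with Vegfa was also lower, 26.3% (19.6 to 33.9) against 12.9% (9.28 to 17.2), while the unthinned shares were 43.7% and 44.4%. Rod markers in these droplets stood at 5765.3 and 3357.3 CPM and RPE markers at 82449.8 and 72236.9 CPM.

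In cones Vegfa was at 34.6 CPM (20 UMIs, 21.2 to 53.5) in the control and 121.1 CPM (175 UMIs, 103.8 to 140.4) after light damage, 3.50-fold higher (log2 1.81, 1.13 to 2.55), and its thinned share was 1.32% and 12.1%. In Müller-like droplets it was at 220.0 CPM (27 UMIs) and 104.8 CPM (41 UMIs), a log2 ratio of -1.07 (-1.81 to -0.31), which relative to the median gene of that class was -0.60 and no longer past 2-fold. In rods the ratios were 0.65 (-0.33 to 1.65) at low and 0.53 (-0.12 to 1.26) at high unspliced share. The control order was RPE-like, bipolar-like (228.5 CPM, 135.4 to 361.1) and Müller-like droplets, with overlapping intervals, then cones, high-unspliced and low-unspliced rods. After light damage the levels of cones, RPE-like and Müller-like droplets all overlapped, at 104.8 to 121.1 CPM, and bipolar-like droplets stood above them at 217.1 CPM (152.0 to 300.5).

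Serpinf1, on chr11:75409769-75422701 (minus strand), had few spliced or ambiguous UMIs in the droplets, 2 in the control and 9 after light damage. Its unspliced UMIs were 11 and 57, of which high-unspliced rods held 10 and 46. The unspliced CPM there was 4.44 and 3.77, a log2 ratio of -0.24 whose interval, -1.24 to 0.92, includes 0. In RPE-like droplets, a class in which PEDF is a textbook product, Serpinf1 had 0 spliced or ambiguous UMIs in the control, where 3 would be 4.33 CPM. After light damage it had 1 there. Most of its spliced or ambiguous UMIs were in microglia-like droplets, 2 in the control and 6 after light damage.

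**Figure D4:**
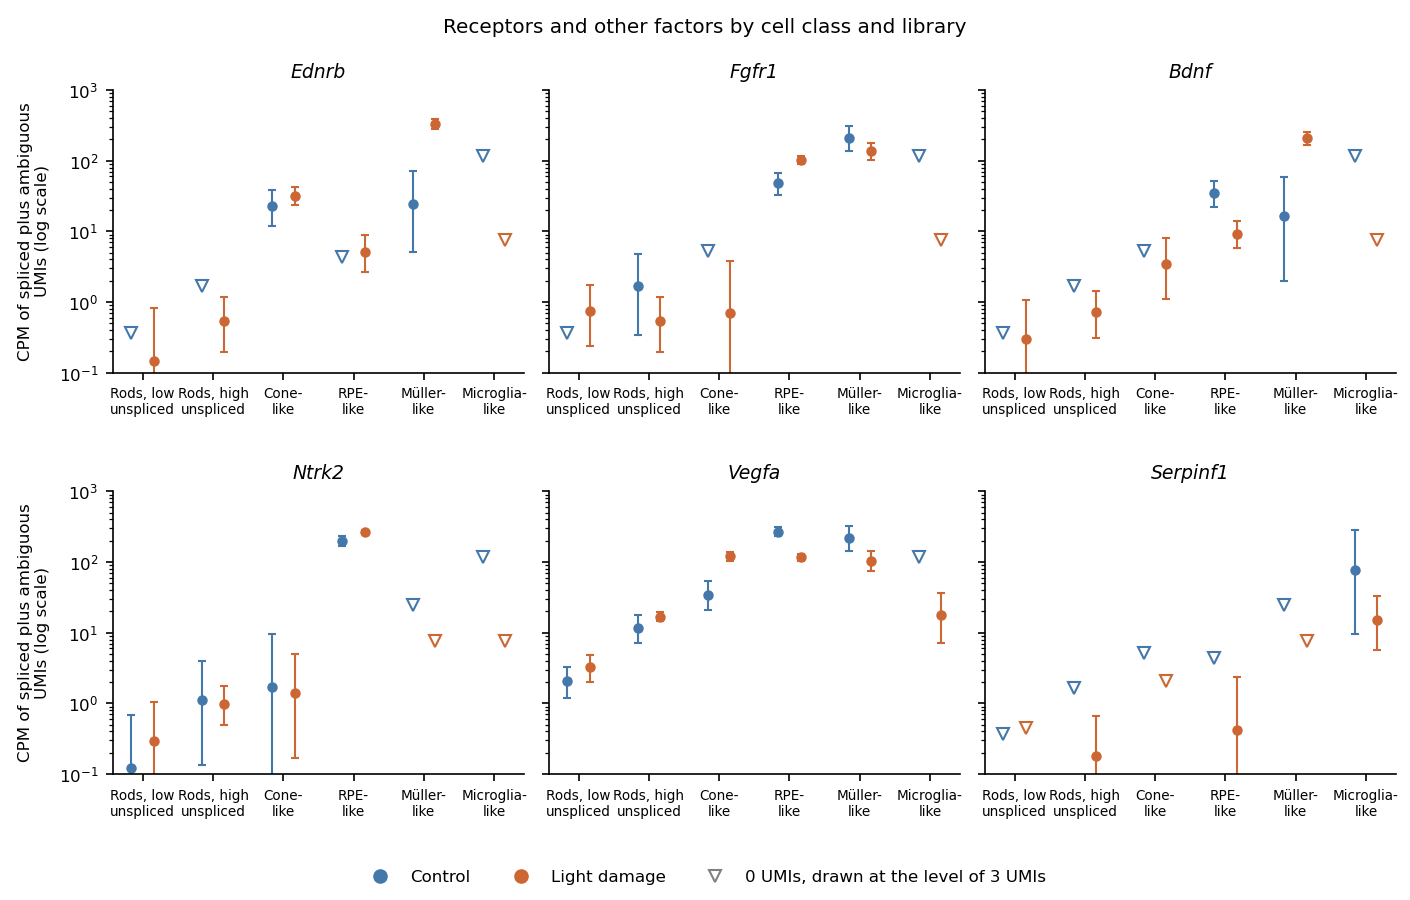
CPM (log scale) of Ednrb, Fgfr1, Bdnf, Ntrk2, Vegfa and Serpinf1 in 6 cell classes, with 1 point per library and exact Poisson 95% intervals clipped at 0.1 CPM. Open triangles stand for 0 UMIs and are drawn at the level of 3 UMIs, and Vegfa lies at 268.6 CPM in control and 116.7 CPM in light damage RPE-like droplets, but at 34.6 and 121.1 CPM in cones.

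The members were read against all genes of the same class. Genes with at least 20 UMIs over both libraries were compared, and a gene was called where its CPM ratio was at least 2-fold. In low-unspliced rods 4.58% of 10337 genes were called higher and 2.92% lower, and Edn2 and Fgf2 were higher among the 3 members with enough UMIs. In high-unspliced rods 9.55% of 12105 genes were called higher and 4.46% lower, and again Edn2 and Fgf2 were higher of 3 members. In cones 17.3% of 8691 genes were called higher and 3.65% lower, and Edn2, Fgf2 and Vegfa were higher of 4 members. Edn2 in low-unspliced and high-unspliced rods (17 and 8 control UMIs) and Edn2 and Fgf2 in cones (0 and 8) reached 20 UMIs only through the light damage library. The members were also chosen with earlier results of these data known, so these counts are a description and cannot be read against the shares.

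In RPE-like droplets 13.0% of 8890 genes were called higher and 6.57% lower. Of the 5 members compared there, Fgfr1 was higher and Bdnf and Vegfa were lower. In Müller-like droplets 24.8% of 5112 genes were called higher and 15.1% lower, and of 5 members Ednrb, Fgf2 and Bdnf were higher and Vegfa lower. Ednrb, Fgf2 and Bdnf had 3, 1 and 2 control UMIs there and were compared only through their light damage UMIs, so their count cannot be read against that share. In microglia-like droplets 16.8% of 3858 genes were called higher and 14.2% lower, and no member reached 20 UMIs. The other members in each class had too few UMIs for the comparison, and Ednra and Serpinf1 had too few in every class.

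**Figure D5:**
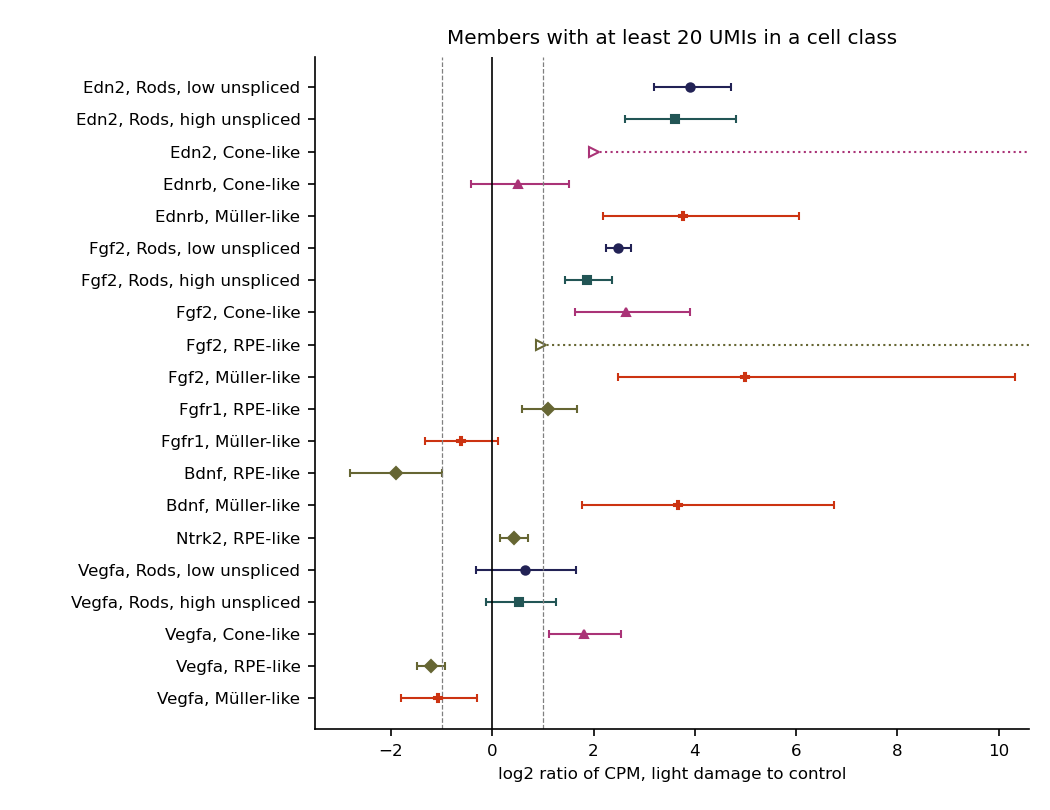
log2 ratio of CPM, light damage to control, for each member and cell class with at least 20 UMIs, with exact 95% intervals. Dashed lines mark a 2-fold ratio, and open arrowheads with dotted lines mark bounds where the control had 0 UMIs. Edn2 and Fgf2 lie to the right in rods, from 1.88 to 3.90, and Bdnf and Vegfa lie to the left in RPE-like droplets, at -1.90 and -1.20.

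Genes that act in the same pathways were listed and counted in the same way. Each count stands beside the share of all genes called in its class. For calls higher this share was 4.58% in low-unspliced and 9.55% in high-unspliced rods, 17.3% in cones and 13.0% in RPE-like droplets. It was 24.8% in Müller-like and 16.8% in microglia-like droplets. For calls lower it was 2.92%, 4.46%, 3.65%, 6.57%, 15.1% and 14.2% in the same order. Lists with few genes compared cannot be read closely against it. Genes of these lists could also reach 20 UMIs only through the light damage library, such as Ngfr in cones (2 and 46 UMIs). The counts of every list are therefore a description. Feedback genes of FGF and ERK signalling, which growth factors switch on, were higher in 7 of 9 compared in Müller-like droplets (median log2 ratio 1.72, against 0.09 over all genes compared) and in 4 of 5 in high-unspliced rods (median 1.78, against 0.09). They were higher in 0 of 3 in low-unspliced rods, 1 of 4 in cones and 0 of 2 in microglia-like droplets, and in RPE-like droplets 1 of 9 was higher and 2 were lower. Most of the higher genes reached 20 UMIs only through the light damage library, such as Dusp6 in Müller-like droplets (2 and 50 UMIs) and Etv5 in high-unspliced rods (1 and 82 UMIs), so these counts are a description. The intervals of Spry4 and Etv1 in Müller-like droplets and of Il17rd in high-unspliced rods included 0. The counts also moved with the settings, in low-unspliced rods from 0 to 5 higher with droplets named singly and to 3 at a rod split of 40%, in high-unspliced rods from 4 to 2 at that split, and in Müller-like droplets from 7 to 2 on unspliced UMIs alone. Dusp5, a nuclear phosphatase of ERK, was at 11.6 and 86.9 CPM in high-unspliced rods (log2 2.90, 2.28 to 3.60). In Müller-like droplets Dusp5 was at 0 and 115.0 CPM, 4.70-fold higher with the control set to 3 UMIs (log2 2.23, lower end 1.88). Spred1, an inhibitor of Ras signalling, was at 81.5 and 641.5 CPM in Müller-like droplets (log2 2.98, 2.07 to 4.05). Spry1, a further inhibitor, was at 57.8 and 11.8 CPM in RPE-like droplets (log2 -2.29, -3.04 to -1.55).

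The other FGF ligands and receptors held 0 calls in both rod classes (3 compared in each) and in cones (2 compared), with 1 higher and 1 lower of 5 in RPE-like droplets. Fgf9, a glial and neuronal FGF, was lower in Müller-like droplets, 163.0 CPM (20 UMIs) in the control and 23.0 CPM (9 UMIs) after light damage (log2 -2.82, -4.14 to -1.62), where it was the 1 gene of this list compared. Fgfr3 was at 21.7 and 5.07 CPM in RPE-like droplets (log2 -2.09, -3.32 to -0.90). In rods Fgf9 was at 26.6 and 47.9 CPM at high unspliced share (log2 0.85, 0.42 to 1.31), and Frs2, an adaptor of FGF receptors, was at 9.37 and 15.5 CPM at low unspliced share (log2 0.72, 0.29 to 1.17). With unspliced UMIs alone these ratios of Fgf9 and Frs2 were -0.06 and -0.92.

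Of the endothelin list, 1 gene was compared in each of cones, RPE-like, Müller-like and microglia-like droplets and none in rods, and the call was higher in RPE-like and microglia-like droplets. Edn1, the vascular endothelin, had 0 control and 146 light damage UMIs (371.4 CPM) in microglia-like droplets, but 110 of the 146 UMIs lay in 1 droplet. With the control set to 3 UMIs this was 3.17-fold higher (log2 1.66, lower end 1.35). Without that droplet no bound above equal levels could be given, so the Edn1 call rests on it, and with the expected RNA from outside cells subtracted the bound was a log2 ratio of 0.82. Mme, which cleaves small peptides, was at 2.89 CPM (2 UMIs) and 13.1 CPM (31 UMIs) in RPE-like droplets (log2 2.18, 0.21 to 5.29). Among neurotrophin genes, Ngfr, the p75 receptor, was at 3.46 CPM (2 UMIs) and 31.8 CPM (46 UMIs) in cones (log2 3.20, 1.27 to 6.29), and 1 of 2 genes was called higher there. Sort1, its co-receptor sortilin, was at 122.2 and 35.8 CPM in Müller-like droplets (log2 -1.77, -2.93 to -0.62), where 1 of 3 was called lower, and at 176.2 and 125.1 CPM in RPE-like droplets (log2 -0.49, -0.80 to -0.18). In each rod class and in RPE-like droplets 1 neurotrophin gene was compared and 0 were called.

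VEGF ligands and receptors were called in both directions. In low-unspliced rods 0 of 1 were called, in high-unspliced rods 2 of 4 genes of this list were higher and 1 was lower, in cones 1 of 2 was higher and 1 lower, and 1 was higher of 4 in RPE-like, of 3 in Müller-like and of 1 in microglia-like droplets. Flt1, the VEGF receptor 1, had 0 control and 30 light damage UMIs (20.8 CPM) in cones, at least 4.00-fold higher, but 26 of the 30 UMIs lay in 1 droplet and without it no bound could be given. In high-unspliced rods Flt1 was at 0.553 CPM (1 UMI) and 4.24 CPM (47 UMIs), but with unspliced UMIs added the log2 ratio of 2.94 became 0.05. Nrp1, a co-receptor of VEGFA, had 0 and 36 UMIs (15.2 CPM) in RPE-like droplets, 3.51-fold higher with the control set to 3 UMIs (log2 1.81, lower end 1.44). Naming droplets singly gave 0.42 on the log2 scale, with a lower end of -0.16. Nrp2 had 0 and 93 UMIs (236.6 CPM) in microglia-like droplets, at least 2.02-fold higher, and a bound of 0.17 on the log2 scale with RNA from outside cells subtracted.

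Of the hypoxia genes, 0 of 7 and 0 of 8 were called in low-unspliced and high-unspliced rods, 1 of 7 was higher in cones, 1 of 6 in RPE-like and 0 of 5 in Müller-like droplets, and in microglia-like droplets 2 of 5 were higher and 1 lower. Hif1a, the oxygen-regulated transcription factor, was at 205.0 and 607.1 CPM in RPE-like droplets (log2 1.57, 1.32 to 1.83), where Vegfa was lower. Hif1a was at 573.2 and 858.3 CPM in low-unspliced rods (log2 0.58, 0.53 to 0.64), and there unspliced UMIs alone gave -0.77. In microglia-like droplets Hif1a was at 78.2 CPM (2 UMIs) and 508.8 CPM (200 UMIs). Slc2a1, the glucose transporter GLUT1, was at 916.8 and 1327.5 CPM in RPE-like droplets (log2 0.53, 0.41 to 0.66).

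Among proposed PEDF receptors 1 of 3 was higher in low-unspliced rods, high-unspliced rods and Müller-like droplets each, 1 of 3 was lower in high-unspliced rods and microglia-like droplets each, and 0 were called of 2 in cones and 3 in RPE-like droplets. Pnpla2, a lipase that binds PEDF, was at 1.09 and 3.83 CPM in low-unspliced rods (log2 1.81, 0.67 to 3.09) and at 5.53 and 14.6 CPM in high-unspliced rods (log2 1.40, 0.49 to 2.49). Rpsa, the laminin receptor and a ribosomal protein with many near-identical copies in the genome, was at 700.7 and 348.1 CPM in high-unspliced rods (log2 -1.01, -1.10 to -0.92) and at 973.4 and 519.7 CPM in cones (log2 -0.91, -1.06 to -0.74). At a rod split of 40% the ratios in high-unspliced rods were no longer past 2-fold, at 0.77 (-0.15 to 1.87) for Pnpla2 and -0.68 for Rpsa.

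Other survival factors were called higher and lower, respectively, in 1 and 1 of 11 in low-unspliced rods, 2 and 0 of 13 in high-unspliced rods, 2 and 1 of 10 in cones, 2 and 2 of 12 in RPE-like, 1 and 4 of 12 in Müller-like and 0 and 1 of 5 in microglia-like droplets. The shares over all genes of these classes, given above for the members, stand beside these counts, and with droplets named singly 6 were higher in low-unspliced rods. Cntfr, the CNTF receptor, was at 1.44 CPM (1 UMI) and 36.4 CPM (86 UMIs) in RPE-like droplets (log2 4.65, 2.14 to 9.97). Hbegf, an EGF-family ligand, was at 16.3 CPM (2 UMIs) and 365.5 CPM (143 UMIs) in Müller-like droplets (log2 4.49, 2.61 to 7.55). In low-unspliced rods Hbegf was at 9.12 and 0.442 CPM, where 70 of the 75 control UMIs lay in 1 droplet. Nxnl2, a thioredoxin-like gene of photoreceptors, was at 312.9 CPM (8 UMIs) and 35.6 CPM (14 UMIs) in microglia-like droplets, in which rod markers stood at 40711.8 and 4085.7 CPM, and their part in this value was not tested.

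Over the 12 groups made by 6 classes and the 2 libraries, the genes whose level was most like that of a member were listed among 11249 genes with at least 100 UMIs, as a description across groups that share libraries and depth. The measure was Pearson's r of log2(CPM + 10). The gene most like Edn2 was Fgf2os (r = 0.963), followed by Tecta (0.907) and AC113104.1 (0.892), and those most like Fgf2 were Slc26a6 (0.929), Dock3 (0.905) and Pcdhb20 (0.898). For Ednrb they were 9330188P03Rik (0.942), Pde10a (0.942) and Inhba (0.925), and for Bdnf Fam49a (0.969), Ccn1 (0.967) and Cavin1 (0.956). Fgfr1 was most like Hes1 (0.996), Lhx2 (0.992) and Ddah1 (0.987), Ntrk2 like Gpr143, Ncam2 and Fetub (each 0.999), and Vegfa like Ahcyl2 (0.953), Limch1 (0.953) and Jam3 (0.944).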

How the data were processed

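Retinae of 2 pools of mice were dissociated, cleared of dead cells and barcoded, and per the study's methods the authors demultiplexed reads with Cell Ranger 7.0.1, mapped them to a spliced and intronic index of the 10x mm10 reference with Salmon 1.10.1 and counted UMIs on the forward strand with alevin 0.8.1 (alevin-fry). The deposited values are raw counts of spliced, unspliced and ambiguous UMIs per barcode and gene, with no filter on droplets. Symbols were matched to Ensembl gene IDs (32158 of 32285), and gene positions are from GENCODE vM21 (GRCm38). Droplets were kept above the larger of 500 UMIs and the inflection of ranked barcode totals, with under 10% mitochondrial UMIs. Scrublet in scanpy 1.11.5 ranked droplets, and those with the highest scores (114 and 276) were left out as likely doublets, a share that grew with the number of droplets. Both libraries were clustered together with Leiden at resolution 1 on 2000 variable genes that held neither the members nor the listed pathway genes, and the 14 clusters were named from marker lists, so class names are rebuilt here and may differ from the study's. UMIs were summed per class and library. Levels have exact Poisson intervals, ratios exact conditional binomial intervals and shares exact binomial (Clopper-Pearson) intervals, and a group at 0 was set to 3 UMIs per library and class to give a bound. Such a bound is a point value, and the interval of the counts can reach nearer to equal levels or past them. RNA from outside cells was read from barcodes under 50 UMIs. The members and lists were chosen with earlier results of these data known. Up to 4 genes per list were named, those whose interval lay farthest from 0 at its near end, among genes with at least 20 UMIs. The scripts were tested on simulated data. Promoter letters are from RefSeq (GRCm38.p6).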

Additional observations from a re-analysis of the deposited data

Results flagged for a closer look

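Several genes had ratios past 2-fold in opposite directions in different cell classes, with intervals that exclude 0 in each. The difference between the classes was not tested, since there is 1 library per group. Bdnf had a log2 ratio of 3.67 in Müller-like and -1.90 in RPE-like droplets. Vegfa had 1.81 in cones, -1.20 in RPE-like and -1.07 in Müller-like droplets. Hbegf had 4.49 in Müller-like droplets and -4.37 in low-unspliced rods. The rod value became a bound of -0.47 (upper end 0.39) when the droplet with the most UMIs was left out of each library. It thus rests on 1 control droplet that held 70 of 75 UMIs.

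Of the 9 members, 4 were higher after light damage, with intervals that exclude 0, in barcodes under 50 UMIs, which enter no comparison of cell classes. There Edn2 had a log2 ratio of 3.60 (2.34 to 5.25, 5 and 123 UMIs), Fgf2 of 1.65 (0.96 to 2.41, 20 and 127 UMIs), Fgfr1 of 2.30 (0.62 to 4.66, 3 and 30 UMIs) and Ntrk2 of 1.13 (0.38 to 1.96, 18 and 80 UMIs). For Vegfa (0.30, -0.40 to 1.05) and Bdnf (1.15, -1.12 to 4.40) the interval included 0, and Ednrb had 0 and 9 UMIs. RPE markers in this RNA stood at 2914.9 and 12087.1 CPM and rod markers at 61618.4 and 53338.5 CPM, and their part in these values was not tested. The level of Edn2 in these barcodes after light damage, 48.2 CPM, lay between those of low-unspliced rods (31.0 CPM) and high-unspliced rods (53.9 CPM).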

How the results depend on the processing

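Across the 14 alternatives run, which changed the filters, doublet removal, kinds of UMI, clustering, naming, rod split and scaling, subtracted RNA from outside cells, or left out the top droplet or, as a choice made after seeing the data, shared barcodes, 13 of the 14 member values past 2-fold kept their direction. The log2 ratio of Edn2 lay between 3.74 and 4.34 in low-unspliced and 3.57 and 3.98 in high-unspliced rods. That of Fgf2 lay between 2.26 and 3.73 in low-unspliced and 1.83 and 2.26 in high-unspliced rods, and the value of 3.73 came from unspliced UMIs alone. For Edn2 in rods unspliced UMIs alone were too few to give a value. With them the ratio of Vegfa in Müller-like droplets turned to 0.47 (-2.87 to 6.09), that of Rpsa in high-unspliced rods to 1.02 and that of Flt1 there to -0.30. Naming droplets singly moved Vegfa in low-unspliced rods to 2.12 and Fgf2 in RPE-like droplets to a bound of 0.42 (lower end -0.16). Of the member values under alternatives 261 stayed within counting error of the reported ratio, 8 moved past it and 1 reversed, and of the counts of list genes 984 stayed near the reported count and 148 did not. Part of this tally was fixed in advance. Settings of the rod split cannot change values outside rods, and a bound could only move by falling. In low-unspliced rods the share of genes called higher (4.58%) was 10.7% with droplets named singly and 14% at a rod split of 40%, and the share called lower (2.92%) was 1.68% to 1.72% with another minimum of UMIs or a mitochondrial limit of 5% and 11.3% on unspliced UMIs alone. In microglia-like droplets the share called higher (16.8%) ranged from 4.44% to 49.3%. The share called lower was 8.69% in cones on unspliced UMIs alone, and 7.16% in Müller-like and 7.02% in microglia-like droplets relative to the median gene. The cause of these changes was not tested. The median gene had a log2 ratio of 0.16 in low-unspliced rods, -0.11 in RPE-like, -0.47 in Müller-like and -0.63 in microglia-like droplets, by which ratios relative to it shift. No paired analysis was possible because each group had 1 library. The small Müller-like and microglia-like classes limit precision, and with 1 pool of mice per group the treatment and the library cannot be told apart.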
